A study of Macaca mulatta with 6 samples.

Results

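The genes described here handle long-chain fatty acids between their synthesis and their place in a membrane. They are LPCAT3, the elongases ELOVL1, ELOVL5 and ELOVL6, the desaturases FADS2 and SCD5, and the acyl-CoA synthetase ACSL1. They were chosen by gene symbol, as every probe set whose annotation carried 1 of these names, with earlier results of these data known. This gave 7 of the 14132 named genes on the array, read by 13 of its 52766 probe sets other than controls. ELOVL6 had 4 probe sets, FADS2, SCD5 and ACSL1 had 2 each, and LPCAT3, ELOVL1 and ELOVL5 had 1 each.

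The study treated luteal cells of rhesus macaques with T0901317, a compound that activates the liver X receptors (LXRs), to find the target genes of these receptors. Per the labels, the treated cells received 1 µM T0901317 and the vehicle cells 0.1% DMSO, for 24 h from plating on fibronectin in serum-free medium. Each group had 3 arrays, 1 per replicate, and the submitters describe the replicates as pairs. Both groups came from corpora lutea collected 12 days after the surge of luteinizing hormone. The labels state neither an animal's age nor whether a pair shared an animal. The p-values therefore concern the treatment differences over these 3 pairs of cultures, not over a stated number of animals. They also rest on a spread that limma, the fit used below, estimated partly from all probe sets.

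As background, LXRs are nuclear receptors that respond to oxidised cholesterol and switch on genes of cholesterol export and lipid synthesis. A fatty acid enters metabolism once an acyl-CoA synthetase has joined it to coenzyme A. Elongases then lengthen the acyl-CoA, desaturases add double bonds, and lysophospholipid acyltransferases such as LPCAT3 place it in a phospholipid. LPCAT3 is a direct LXR target in mouse and human cells and favours polyunsaturated chains. The corpus luteum makes progesterone from cholesterol, and polyunsaturated chains in its membranes are also the source of prostaglandins.

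The deposited values were log2 levels, so a difference of 1 is a 2-fold change. Column medians ran from 5.54 to 5.71. Of the luteal markers, 5 of 8 were measured, among them STAR and HSD3B2, and all 5 lay above the reference for dim signal of 4.63. CYP11A1 and LHCGR were not analysed here. All 10 measured macrophage markers and 8 of 9 endothelial markers also lay above it, as did all 3 adipocyte markers. On each array 68.8% to 74.1% of all probe sets lay above it. By their mean, 12263 of the 14132 named genes did so besides LPCAT3. A level above this reference therefore does not tell which cell types were in the cultures. In bulk RNA, fewer cells of a type and less RNA per cell cannot be told apart. RNA quality was read from the actin control as its 3' level minus its 5' level, which was 2.45 in the treated array and 3.50 in the vehicle array of replicate 3. In the other 4 arrays it was 1.54 to 2.03.

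LPCAT3 was higher with T0901317 in every pair, about 2-fold, and it was the only one of the 7 genes to pass the test. The 3 elongases, the 2 desaturases and ACSL1 did not pass in either direction. FADS2 and ACSL1 lay above 0 in 3 of 3 pairs and SCD5 below 0 in 3 of 3, with mean differences of 0.39, 0.31 and -0.21 on the log2 scale. Changes were fitted with limma over all 52766 probe sets with the replicate number as a block, and p-values were adjusted by the Benjamini-Hochberg method at a threshold of 0.05. By this rule 0.177% of all named genes and 0.0853% of all probe sets passed in either direction, against 1 of the 7 genes and 1 of their 13 probe sets. Calls upward made up 0.113% of named genes and 0.0606% of probe sets, and calls downward, of which these genes had 0, made up 0.0246% of probe sets. The median change of the 7 genes was 0.0011, beside -0.02 for all named genes. The genes were chosen with earlier results of these data known, so these shares are no test of the group.

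**Figure D1:**
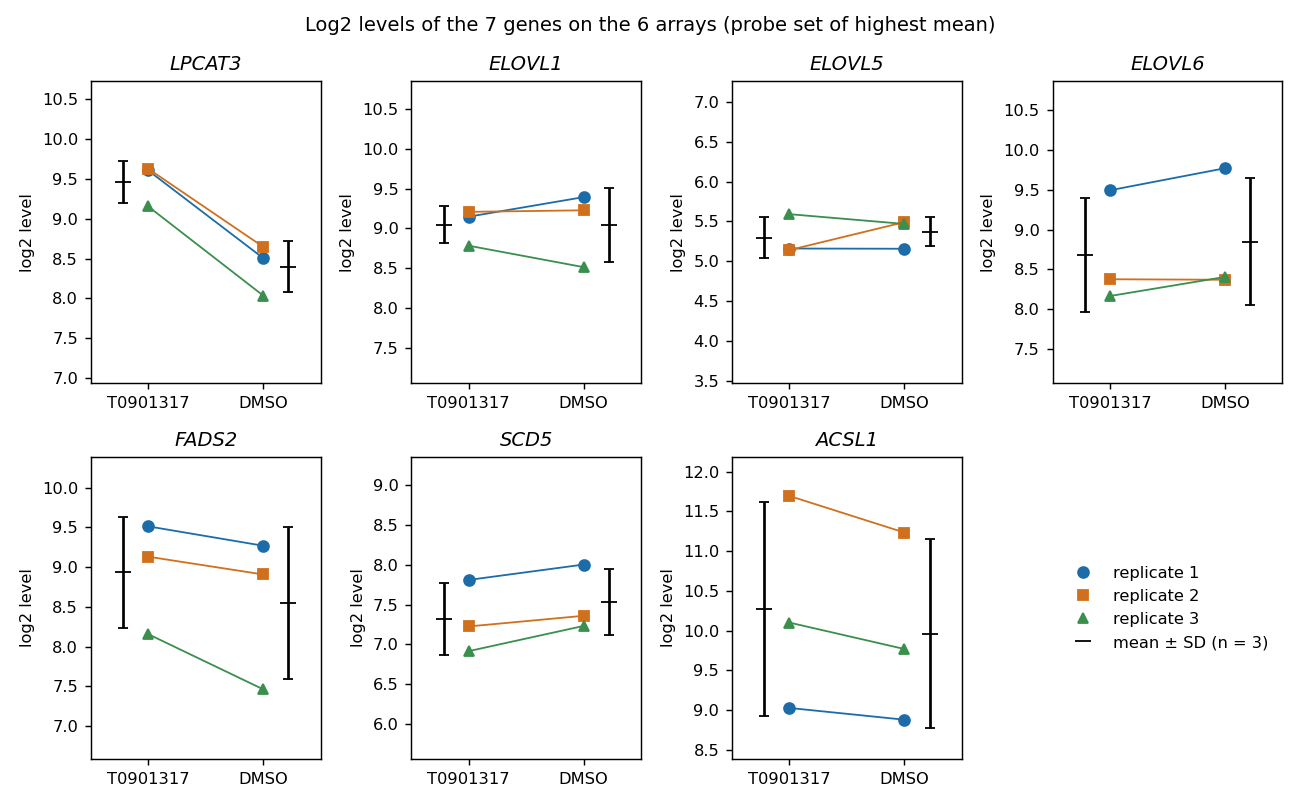
Log2 level (vertical axis, each panel spanning the same number of log2 units) of the 7 genes in T0901317 and DMSO cultures (horizontal axis), on the probe set with the highest mean. Coloured symbols joined by lines are the replicates and black bars the mean ± SD (n = 3). All 3 LPCAT3 lines lie higher at T0901317, from 9.16 to 9.63 against 8.03 to 8.65 at DMSO, while for each of the other genes the levels of the groups overlap. ACSL1 has the widest spread between replicates.

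LPCAT3 remodels phosphatidylcholine by joining a polyunsaturated chain to lysophosphatidylcholine. Its log2 levels (probe set MmuSTS.4357.1.S1_at) were 9.61, 9.63 and 9.16 with T0901317 in replicates 1, 2 and 3, against 8.51, 8.65 and 8.03 with DMSO. The lowest treated array lay above the highest vehicle array, and replicate 3 was the lowest in both groups. Groups that do not overlap in either direction were found for 2.45% of all probe sets, and 1.38% had the treated arrays on top. The differences in the pairs were 1.10, 0.98 and 1.12. The mean difference was 1.07 ± 0.09 (limma's SE, n = 3 pairs; limma adjusted p = 5.1e-04), which is a 2.10-fold rise with a 95% interval of 1.83 to 2.40.

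LPCAT3 had the 10th largest rise among the 14132 named genes. The SD of its pair differences, 0.075, was the second smallest among the 45 probe sets that passed, a test that itself favours a small SD. Its p-value ranked seventh among all probe sets. Of those 45 probe sets, 16 had groups that did not overlap. The vehicle cultures differed among themselves by 0.61 from lowest to highest, and the treated cultures by 0.47, both less than the treatment difference.

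The call of LPCAT3 rests on the pairing. Without the replicate block the difference was the same but its SE was 0.23, and no probe set of the whole table passed (LPCAT3 limma adjusted p = 1.00). With the replicate as a random block the adjusted p of LPCAT3 was 0.077. LPCAT3 was read by 1 probe set, so no second one could be set beside it. Of 46 measured markers of 8 cell types 0 passed in limma, and at an unadjusted p under 0.05 there were 8, 1 higher and 7 lower, against 3.73% of all named genes. The median changes of the lists ran from -0.30 for blood cells to 0.12 for endothelial cells, with -0.18 for luteal and -0.02 for macrophage markers. The part of these shifts in the levels of LPCAT3 was not tested.

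**Figure D2:**
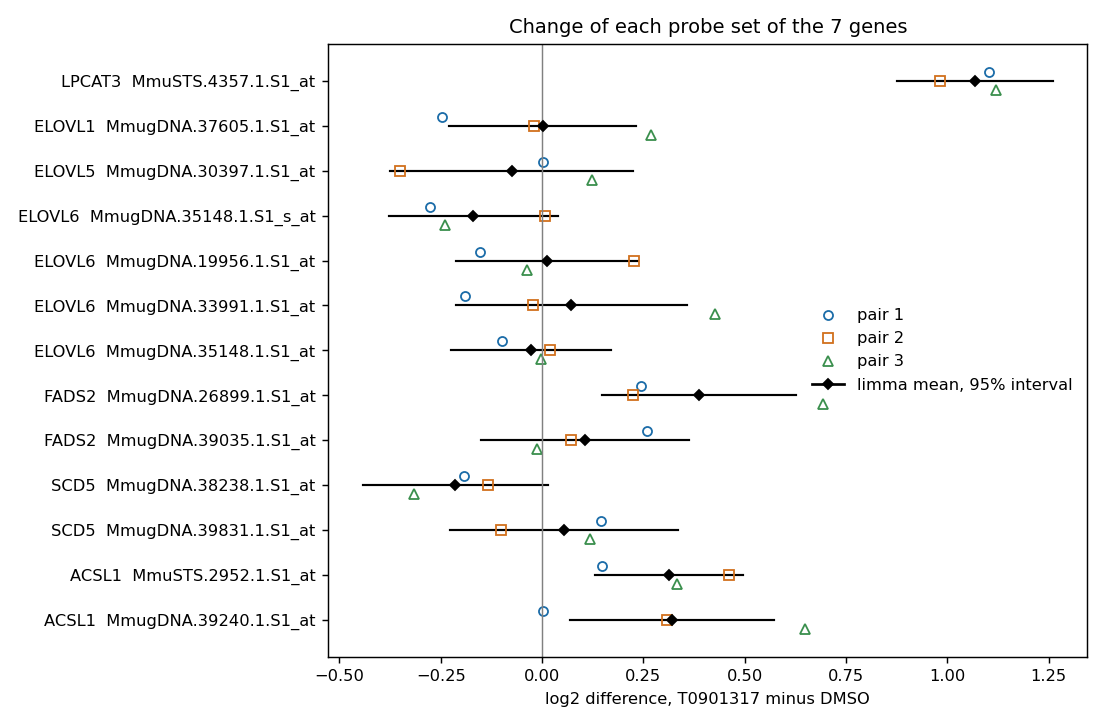
Log2 difference, T0901317 minus DMSO (horizontal axis), for the 13 probe sets of the 7 genes (vertical axis). Open symbols are the 3 pairs, and black diamonds with lines are limma's mean and 95% interval. LPCAT3 lies between 0.98 and 1.12 in the pairs, and the upper limit of every other interval is at or below 0.63.

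The other genes did not pass. Their intervals rest on limma's SE, which joins the spread over the 3 pairs with a spread estimated from all probe sets. The first had 2 residual degrees of freedom and the second a weight of 9.44. The limits hold under that model and are not those of the 3 pairs alone. The interval of LPCAT3 was 0.88 to 1.26, while the highest upper limit among the other 12 probe sets was 0.63, for FADS2. The difference in change between LPCAT3 and each other gene was not tested. At an unadjusted p under 0.05 there were 3 of the 7 genes, LPCAT3, FADS2 and ACSL1, against 3.73% of all named genes. The sign was the same in 3 of 3 pairs for 4 of the 7 genes, against 25.2% of all named genes, and for 5 of their 13 probe sets, against 23.2% of all probe sets. Since the genes were chosen with earlier results of these data known, neither comparison tests the group.

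FADS2 starts the conversion of linoleic and alpha-linolenic acid to longer polyunsaturated fatty acids. On its brighter probe set (MmugDNA.26899.1.S1_at) it had log2 levels of 9.51, 9.13 and 8.16 with T0901317 in replicates 1, 2 and 3, against 9.27, 8.91 and 7.46 with DMSO. The treated culture was higher in each pair, but the groups overlapped. The vehicle SD of 0.96 was larger than the change, while the SD of the pair differences was 0.27. The change was 0.39 ± 0.11 (limma adjusted p = 0.85), with a 95% interval of 0.15 to 0.63. The differences in pairs 1 and 2 were 0.24 and 0.22, and that in pair 3 was 0.69. Pair 3 was also the pair with the largest gap in RNA quality. Its 3' minus 5' level, as a mean of 3 control genes, was 1.30 in the treated and 1.89 in the vehicle array, where a smaller value stands for more intact RNA. With that measure as a covariate FADS2 had 0.28 ± 0.08 (limma adjusted p = 0.28), and without replicate 3 it had 0.23. The gap cannot be told apart from other traits of pair 3, and its part in the FADS2 difference was not tested.

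The second probe set of FADS2 (MmugDNA.39035.1.S1_at) gave another picture. Its levels were 6.48, 6.40 and 6.64 with T0901317 and 6.22, 6.33 and 6.66 with DMSO, a change of 0.11 ± 0.12 (limma adjusted p = 1.00). The probe sets differed most in replicate 3. There the brighter one was at its lowest and the dimmer one at its highest in both groups.

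SCD5 is the stearoyl-CoA desaturase isoform found in primates but not in mice, and it makes monounsaturated fatty acids. Its brighter probe set (MmugDNA.38238.1.S1_at) had log2 levels of 7.81, 7.23 and 6.92 with T0901317 and 8.005, 7.36 and 7.23 with DMSO. The treated culture was the lower one in each pair, by 0.19, 0.13 and 0.32, and the groups overlapped. The change was -0.21 ± 0.10 (limma adjusted p = 1.00; 95% interval -0.44 to 0.01), and -0.08 on the mean of both probe sets. Its other probe set (MmugDNA.39831.1.S1_at) lay below the dim reference, with means of 4.55 and 4.50 in treated and vehicle cultures and a change of 0.05 ± 0.13. It was the only one of the 13 probe sets with a mean below that reference. SCD, the better known isoform and an LXR target in other cells, was not analysed here.

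ELOVL6 elongates palmitate to stearate and is the elongase that acts right after fatty acid synthase. On the probe set with the highest mean (MmugDNA.35148.1.S1_s_at) its log2 levels were 9.49, 8.38 and 8.17 with T0901317 in replicates 1, 2 and 3, against 9.77, 8.37 and 8.41 with DMSO. The treated culture was lower in pairs 1 and 3, by 0.28 and 0.24, and 0.0064 higher in pair 2. The change was -0.17 ± 0.10 (limma adjusted p = 1.00; 95% interval -0.38 to 0.04). The other 3 probe sets of ELOVL6 had changes of -0.03 to 0.07, so the probe sets did not share a direction. Their intervals lay within -0.23 and 0.36.

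ELOVL1 elongates saturated and monounsaturated chains to very long ones, as needed for sphingolipids. Its log2 levels were 9.15, 9.21 and 8.78 with T0901317 and 9.39, 9.23 and 8.51 with DMSO. The pairs pointed in different directions, with -0.25, -0.02 and 0.27, and the mean change was 0.0011 ± 0.11 (limma adjusted p = 1.00; 95% interval -0.23 to 0.23). ELOVL5 elongates polyunsaturated chains next to FADS2 in the same pathway. It lay above the dim reference of 4.63, with 5.16, 5.14 and 5.59 in treated and 5.16, 5.49 and 5.47 in vehicle cultures. Its pairs also disagreed, with 0.0030, -0.35 and 0.12, and its change was -0.08 ± 0.14 (limma adjusted p = 1.00; 95% interval -0.38 to 0.22).

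ACSL1 activates long-chain fatty acids for storage and oxidation. On its brighter probe set (MmuSTS.2952.1.S1_at) it had log2 levels of 9.03, 11.7 and 10.1 with T0901317 in replicates 1, 2 and 3, against 8.88, 11.2 and 9.77 with DMSO. The treated culture was higher in each pair, by 0.15, 0.46 and 0.33, and the groups overlapped widely. The change was 0.31 ± 0.08 (limma adjusted p = 0.73; 95% interval 0.13 to 0.50). Its second probe set (MmugDNA.39240.1.S1_at) had 7.89, 10.8 and 9.03 with T0901317 and 7.89, 10.4 and 8.38 with DMSO. This gave a change of 0.32 ± 0.12 with differences of 0.0020, 0.31 and 0.65, and of 0.16 without replicate 3 and 0.48 without replicate 1. Both probe sets thus lay above 0 on the mean, by nearly the same amount, but the order of the pairs was not the same. With the RNA quality covariate the second probe set had 0.18 ± 0.08 and the first 0.29 ± 0.08.

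For 6 of the 7 genes the SD over the vehicle arrays was larger than the size of the change, as it was for 88.2% of all named genes. LPCAT3 was the exception, with a vehicle SD of 0.32. The vehicle SD holds differences between replicates that the pairing removes. The SD of the pair differences was smaller than the change for ACSL1 (0.16), FADS2 (0.27), SCD5 (0.09) and ELOVL6 (0.15). It was larger for ELOVL1 (0.26) and ELOVL5 (0.25). ACSL1 varied most, over 2.67 log2 units among treated and 2.35 among vehicle arrays, with replicate 2 highest and replicate 1 lowest in both groups and on both probe sets. ELOVL6 had the opposite extreme. Replicate 1 was highest in both groups on all 4 probe sets, and the span was 1.26 to 1.48 in treated and 1.40 to 1.87 in vehicle cultures.

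**Figure D3:**
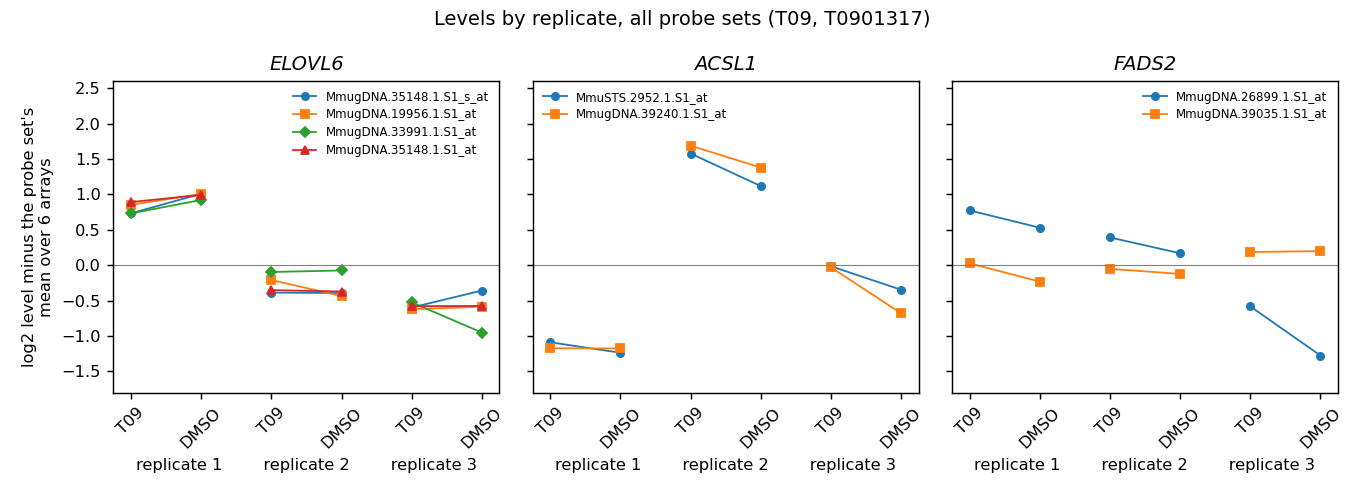
Log2 level minus each probe set's own mean over the 6 arrays (vertical axis) for every probe set of ELOVL6, ACSL1 and FADS2, by replicate and treatment (horizontal axis, T09 being T0901317). Lines join the 2 arrays of a pair. The 4 ELOVL6 probe sets are all highest in replicate 1 and both ACSL1 probe sets are highest in replicate 2, while the FADS2 probe sets part in replicate 3.

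Markers of other cell types also differed between replicates. The summed level of the 10 measured macrophage markers of 11 listed was 11.9 to 13.2 on the log2 scale in treated and 12.0 to 13.3 in vehicle cultures, lowest in replicate 1 in both groups. All 10 lay above the dim reference. The summed level of the 4 measured pericyte and smooth muscle markers of 8 listed was 11.8 to 12.5 in treated and 12.0 to 12.7 in vehicle cultures, highest in replicate 1. In both groups the sums of endothelial and of fibroblast markers were highest in replicate 2. That of T and NK cell markers was highest in replicate 3, and that of blood cell markers was lowest in replicate 1. The summed level of the 5 luteal markers was 12.0 to 12.5 in both treated and vehicle cultures. Its members differed: in both groups INHA and HSD3B2 were highest in replicate 1, and STAR and FDX1 in replicate 2. NR5A1 was highest in replicate 1 of the treated and replicate 3 of the vehicle cultures. The part of these markers in the levels of ACSL1 and ELOVL6 was not tested.

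Related genes of the same steps did not pass. In 7 lists of elongation, desaturation, activation, phospholipid acyltransferases, phospholipases A2, acyl-CoA binding and oxidation, 61 of 87 genes were measured under a name. In limma 0 rose and 0 fell, beside 0.177% called among all named genes, and 5 had an unadjusted p under 0.05, all with lower levels in treated cultures, against 3.73% of all named genes in either direction. The median change over the 61 genes was -0.05, with 19 above 0 and 42 below. The median of all named genes was -0.02. The share of all named genes below 0 was not worked out, so the 42 have no background beside them. Without replicate 3, 3 genes passed in limma, DBI (0.24), PLA2G4C (-0.48) and CPT1A (-0.34). In that fit 328 of the 52766 probe sets passed, against 45 in the main fit.

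**Figure D4:**
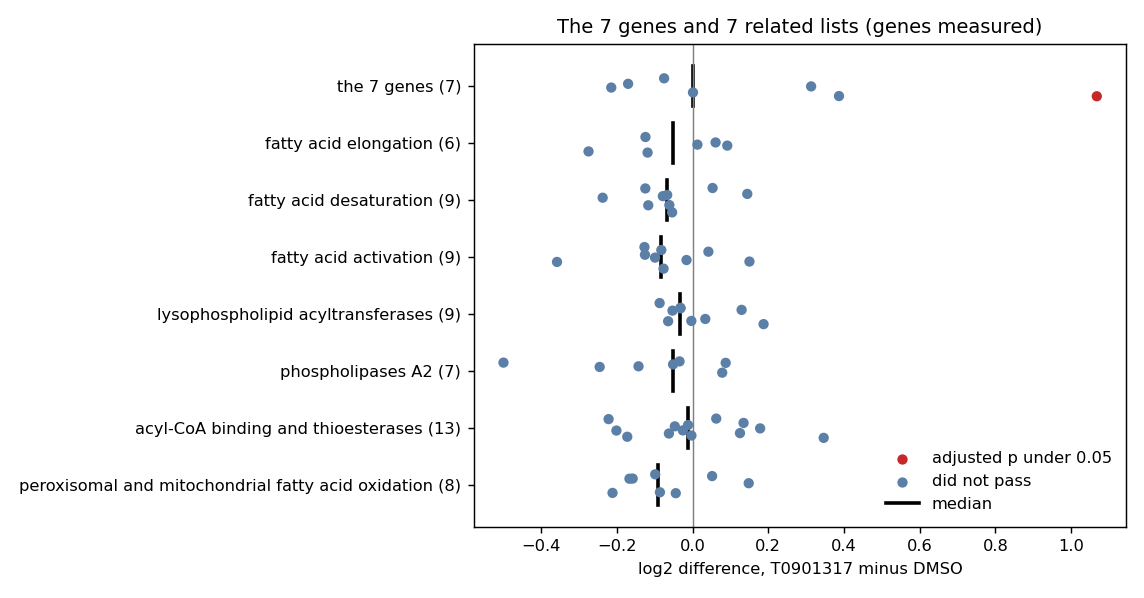
Log2 difference, T0901317 minus DMSO (horizontal axis), of the 7 genes and of the measured genes of 7 related lists (vertical axis, with how many were measured). Each point is a gene by its brightest probe set, spread vertically for legibility, red where limma's adjusted p was under 0.05, and black bars are medians. The 1 red point is LPCAT3 at 1.07, and no gene of the lists lies beyond 0.35 on the right or -0.50 on the left.

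The other lysophospholipid acyltransferases were not called. Of 9 measured, each by its brightest probe set, 0 passed in limma and 0 had an unadjusted p under 0.05. Their changes on these probe sets ran from -0.09 to 0.19 with a median of -0.03. MBOAT2, a membrane-bound acyltransferase of the same family as LPCAT3, had 7.46, 7.88 and 6.81 with T0901317 and 7.67, 7.87 and 6.05 with DMSO, a change of 0.19 ± 0.16. LPCAT2, which also acylates lysophosphatidylcholine, had 0.13 ± 0.14 on its brighter probe set and 0.35 ± 0.13 on the other (limma adjusted p = 1.00 for both). That other probe set had an unadjusted p of 0.022 in limma, with a mean below the dim reference. Without 1 replicate the brighter probe set had 0.01 to 0.29. LPCAT1 and LPCAT4 had -0.06 and -0.0032.

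Among phospholipases A2, which cut out the chain that LPCAT3 puts back, PLA2G4C came nearest to the threshold. Its log2 levels were 8.99, 9.46 and 9.40 with T0901317 and 9.64, 9.77 and 9.94 with DMSO. Every treated array lay below every vehicle array, as for 1.07% of all probe sets. The change was -0.50 ± 0.09 (limma adjusted p = 0.11). PLA2G12A, a secreted member, had -0.25 ± 0.13, with -0.096 without replicate 3 and -0.41 without replicate 2, and the 7 measured members had a median of -0.05.

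Genes of the other steps were not called either. Of 6 elongation genes besides the 3 above, the largest were HACD4, a dehydratase homologue of the elongation cycle, with -0.27 ± 0.09, and ELOVL7 with -0.12 ± 0.15, a probe set below the dim reference. Of 9 desaturation genes, CYB5R1 had -0.24 ± 0.10 and CYB5R2 0.14 ± 0.13, both cytochrome b5 reductases. FADS3 had -0.06 ± 0.08. Of 9 activation genes, the fatty acid transport proteins SLC27A2 and SLC27A6 had -0.36 ± 0.15 and 0.15 ± 0.11, with SLC27A6 below the dim reference, while ACSL5 had 0.04 ± 0.08. The lipid-binding proteins FABP3 and FABP4 had 0.35 ± 0.16 and -0.22 ± 0.30 among 13 genes of acyl-CoA and fatty acid binding and thioesterases. Of 8 oxidation genes, ACADVL had -0.21 ± 0.08 and CPT1A, the entry enzyme of mitochondrial oxidation, -0.17 ± 0.11. None of these passed in limma (adjusted p = 1.00 for each). Several changed in size when 1 replicate was left out. SLC27A2 had -0.15 without replicate 1, and FABP3 0.17 without replicate 1 and 0.59 without replicate 2. CPT1A had -0.04 without replicate 1, and CYB5R2 0.05 without replicate 3 and 0.26 without replicate 1.

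The genes whose levels ran most like those of LPCAT3 were found over the 6 arrays by Pearson's r, as a description, since arrays of a pair deviate together and are not 6 independent points. SREBF1, the transcription factor that controls many fatty acid synthesis genes and is itself an LXR target, was first (r = 0.98). It had log2 levels of 10.1, 10.2 and 9.76 with T0901317 and 8.58, 9.20 and 7.82 with DMSO, and it shares with LPCAT3 the lowest level in replicate 3 of both groups. HES2 (0.97), RTN4RL2 (0.97), TMEM135 (0.95) and PKN3 (0.94) followed. This likeness ignores size. HES2 and PKN3 had changes of 0.12 and 0.07 that did not pass, while TMEM135, a peroxisomal membrane protein, rose by 1.35 ± 0.16 (limma adjusted p = 0.0087). It passed in 9 of 13 alternatives and missed the threshold without the block, with a random block, after quantile normalization and without the variance trend (adjusted p = 1.00, 0.66, 0.12 and 0.097).

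By the size of the pair differences the nearest gene was NR1H3, which encodes LXR alpha. Its pairs had 1.42, 1.02 and 1.29, a root mean square distance of 0.21 from the pairs of LPCAT3. ACACA, the enzyme that makes malonyl-CoA for synthesis and elongation, was next with 0.75, 0.86 and 0.91 (distance 0.25). CP, APOC4 and PPIP5K2 followed at 0.26, 0.29 and 0.30. Of 13 alternatives, ACACA and CP passed in 10 each, APOC4 in 7 and PPIP5K2 in 8. On the mean of all its probe sets ACACA had 0.51, against 0.84 on the brightest. The change of PPIP5K2 ran from 0.46 to 1.29 over the alternatives. The other 6 genes of elongation, desaturation and activation had r of -0.44 to 0.62 with LPCAT3, highest for the brighter FADS2 probe set.

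**Figure D5:**
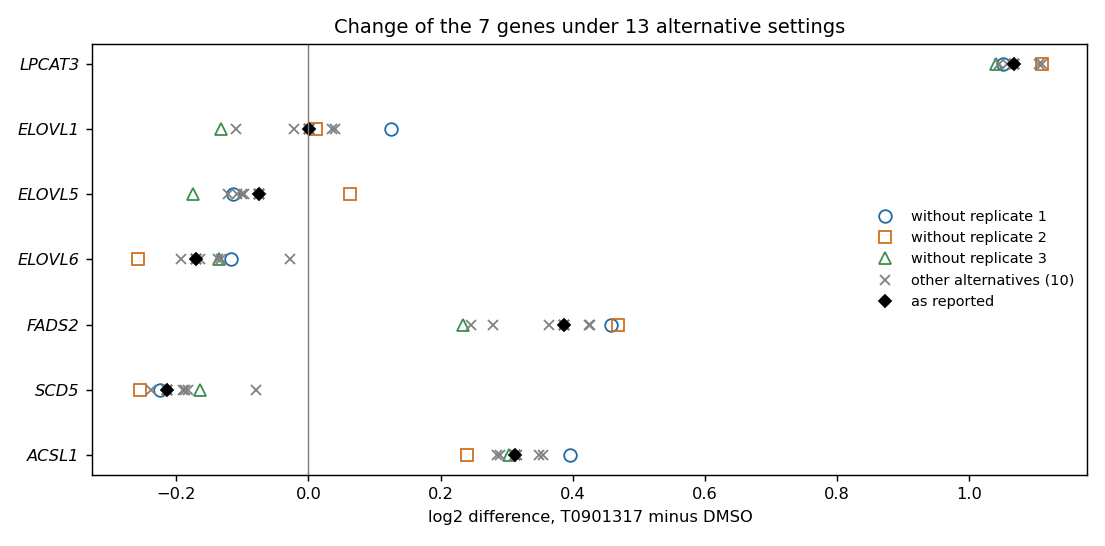
Log2 difference, T0901317 minus DMSO (horizontal axis), of the 7 genes (vertical axis) as reported (black diamonds), without each replicate (open symbols) and under 10 other settings of normalization, filter, variance model and block (grey crosses). LPCAT3 lies between 1.04 and 1.11 under all 13 alternatives, while ELOVL1 and ELOVL5 fall on both sides of 0. Settings of block, filter and variance model cannot move a difference.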

How the data were processed

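Biotin-labelled total RNA from 6 luteal cell cultures was read on 1 array each. The deposited values are log2 levels that the authors made with RMA, per the submitters' processing notes. The version and whether the arrays were processed together are not given in the sources used here. Scanner files and detection calls were not used, so no batch could be tested, and the number of arrays limits the precision. Names came from the platform annotation: 24956 probe sets had 1 symbol, 361 several and 27449 none, and updating 24616 of them by gene number changed 0 symbols. The 99 control probe sets were left out. The dim reference is the 95th percentile of the mean levels of 42 Bacillus control probe sets. Where a gene had several probe sets, the one of highest mean stood for it.

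T0901317 minus DMSO was fitted with limma 3.58.1 in R 4.3.3, with the replicate as a block and a variance trend. A check on simulated data drew its spreads from limma's own fitted model, so it did not test that model. The pairing comes from the design text. Arrays of one number had correlated deviations from their group means (0.66, 0.81 and 0.83). No 2 arrays shared over 0.327% of their values. Alternatives changed the block, replicates, normalization, filter, variance model, RNA quality covariate and probe set summary. Named genes were the 7 genes, per list those called or the 2 of largest change, and the 5 most like LPCAT3 by either measure. Genes outside that rule (DBI, LPCAT1, LPCAT4, ACSL5 and FADS3) were picked once their values were known. The genes and lists were chosen with earlier results of these data known. No sequence table was used here.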

Additional observations from a re-analysis of the deposited data

How the results depend on the processing

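LPCAT3 was higher with T0901317 under all 13 alternatives, at 1.04 to 1.11. It passed in 11 and missed the threshold without the replicate block (1.07; limma adjusted p = 1.00) and with a random replicate block (1.07; adjusted p = 0.077), where 0 of the 7 genes passed in either fit. The count of called probe sets, 45, was 0 without the replicate block (143 at an unadjusted p under 0.05) and 3 with the random one. It was 27 after quantile or cyclic loess normalization, 11 without the variance trend, 206 with the RNA quality covariate and 35 to 328 without 1 replicate. The 328 came without replicate 3, where limma estimated no variation in spread between probe sets. Of the related genes, 1 passed with the covariate and 1 on gene means, PLA2G4C in both, and 0 to 3 without 1 replicate. No member other than LPCAT3 passed under any alternative. Values that changed sign were all uncalled. ELOVL1 had -0.022 after median centring, -0.11 with the covariate and -0.13 to 0.12 without 1 replicate, and ELOVL5 had -0.17 to 0.063 without 1 replicate. The lesser ELOVL6 probe sets had -0.095 to 0.094, -0.11 to 0.20 and -0.051 to 0.0088 without 1 replicate. They also had -0.011 after centring, -0.066 with the covariate, 0.0044 after quantile and 0.010 after loess normalization. Without 1 replicate ELOVL7 had -0.35 to 0.035, FABP4 -0.71 to 0.41 and MBOAT2 -0.099 to 0.39; with the covariate FABP4 had 0.27 and MBOAT2 -0.032. The cause was not tested.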

Other observations

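HACD4, which resembles the dehydratases of the elongation cycle, was read by 2 probe sets that had the same sign in 3 of 3 pairs. Of all probe sets, 23.2% had 1 sign in 3 of 3 pairs. The names of the 2 (MmugDNA.17986.1.S1_at and MmugDNA.17986.1.S1_s_at) share a number, so they may not be independent readings. The brighter one had differences of -0.31, -0.17 and -0.35 in the pairs and the other -0.34, -0.31 and -0.36. Neither passed in limma (adjusted p = 1.00 and 0.80 for changes of -0.27 ± 0.09 and -0.34 ± 0.09). The dimmer LPCAT2 probe set had 4.72, 4.52 and 4.75 with T0901317 and 4.17, 4.22 and 4.55 with DMSO, close to the dim reference of 4.63, with differences of 0.55, 0.30 and 0.20. FABP4, a fatty acid carrier of fat cells, endothelium and macrophages, had pair differences of 0.76, 0.05 and -1.48, so its pairs pointed in different directions.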
